A study of Mus musculus with 50 samples.

Results

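Sertoli cells are the somatic nurse cells of the seminiferous tubule, and 10 of their genes outside the cystatin family were followed in the testis of wobbler mice: Clu, Ctsl, Defb36, Sox9, Amh, Inha, Inhbb, Trf, Espn and Rhox5. Members were the probes whose gene symbol in the platform annotation is on this list. They were 11 of the 20355 probes on the array and covered 8 of the 10 genes, with a second probe for Sox9, Trf and Espn, whereas no probe carried the symbol Amh or Inhbb. All 11 were tested in testis and 8 of them in spinal cord. Of 7 genes that define Sertoli cells (Sox9, Wt1, Gata4, Dmrt1, Amh, Fshr and Cldn11) only Sox9 and Cldn11 had a probe, and a table of ratios gives no levels, so the presence of Sertoli cell RNA could not be checked from the values.

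All tested RNA was from homozygous wobbler mice (wr/wr). The wobbler allele is a recessive change in Vps54, part of a complex that tethers vesicles at the Golgi, and causes loss of motor neurons and sperm with defective acrosomes. Testis RNA of 10 wr/wr mice was hybridised, 4 arrays a mouse, against 1 pool of wild-type testis RNA, and the contrast tissue was wr/wr spinal cord, with pool1 and pool2 (4 mice each, 4 arrays each) and the cord of mouse 5995 (2 arrays) set against 1 pool of wild-type cord RNA. The 9 mice behind the cord RNAs also gave testis RNA, and each RNA had as many arrays with the wr/wr RNA in Cy5 as in Cy3. No age is given in the labels. Per the sample labels each wild-type pool holds 10 mice, while the labelling protocol speaks of 6.

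Sertoli cells enclose the germ cells, seal them off from the blood by tight junctions and feed them with secreted proteins. Their identity is set by transcription factors such as Sox9, and they send hormones of the TGF-beta family to the pituitary and to the developing genital tract. Germ cells behind the barrier receive iron on transferrin from Sertoli cells, and adhere to them through junctions rich in bundled actin.

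All values are log2 ratios of wr/wr over the wild-type pool, centred on each array's median and averaged over both dyes of an RNA, so that 0 means no difference from the pool. Only ratios were used, and neither side has a level of its own. That the ratio runs as wr/wr over wild type is inferred from the channel order in the labels and is likely but not stated, and the opposite reading would turn every sign below. A probe was called when limma's adjusted p over all probes tested was below 0.05. Testis arrays held 19070 to 20189 measured probes and cord arrays 18338 to 20034, and no member probe held one of the extreme values described under the processing. Because 1 pool stands for the wild type, the spread among wild-type mice is not in the error. In whole organs, a change in the share of Sertoli cells and a change in RNA per cell cannot be told apart.

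In the wr/wr testis, 5 of the 8 measured genes rose, 0 fell and 3 were not called, against a background of 12.3% of all 20218 probes called, 7.28% higher and 5.06% lower. Trf, Espn and Rhox5 were the ones not called. Ctsl, Clu, Defb36, Inha and Sox9 rose, with ratios between 0.19 and 0.44, which is 1.14-fold to 1.35-fold. Counted by probe, as the background is, 5 of the 11 member probes were called. Sox9 rose on 1 of its 2 probes, while the other lay at -0.14, and with both averaged the gene was not called. The median over the 8 genes, each with its best covered probe, was 0.21, beside -0.01 over all probes. These genes were chosen with earlier results of the same arrays known, so the count describes them and is not independent evidence.

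**Figure D1:**
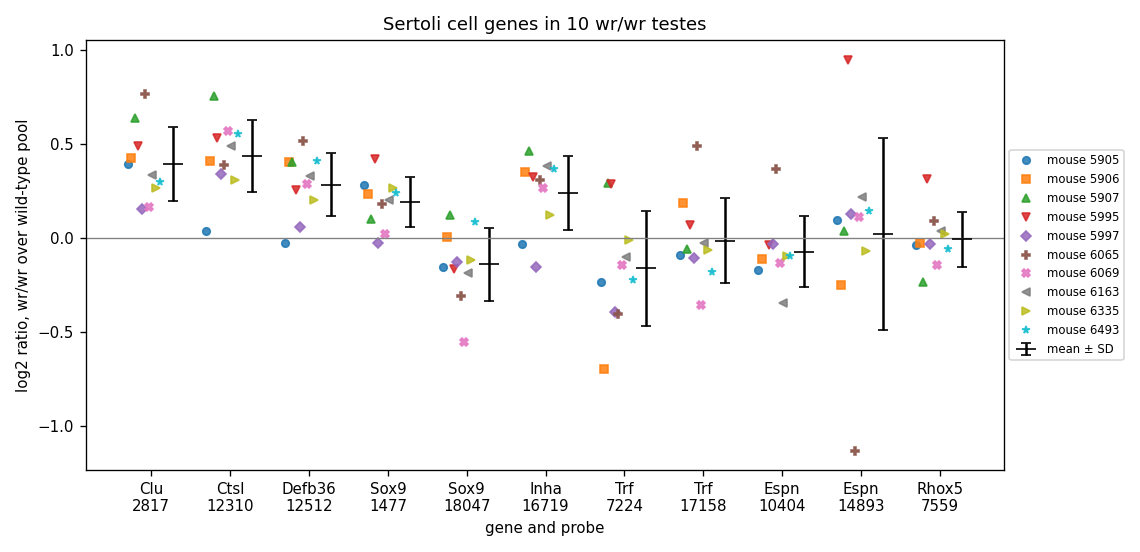
Log2 ratio of wr/wr over the wild-type pool (vertical axis) for each of the 11 member probes (horizontal axis) in 10 testes, 1 symbol per mouse, with the mean ± SD over mice in black. All 10 mice lie above 0 for Clu and Ctsl, while the 2 probes of Sox9 lie on opposite sides of 0 in the mean.

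Promoter windows were available from RefSeq (GRCm38.p6) for 6 of the 10 genes, Inha, Inhbb, Defb36, Espn, Ctsl and Rhox5. The 250 bases before an annotated transcription start are shown for 3 genes that rose and for Rhox5, which did not. They are the stretches searched for motifs of Sertoli cell regulators. Whether these starts are the ones used in testis was not tested. Most of the Inha window reads as protein code without a stop codon, so it may lie inside the gene. The Ctsl window ends as introns do, in a run of c and t followed by ag, and may lie inside its gene too. Ctsl (chr13:64370521-64370770, minus strand) and Rhox5 (chrX:37754358-37754607, plus strand) each hold 1 match to the SOX core AACAAT, read on the opposite strand and printed in capitals. Defb36 (chr2:152604077-152604326, plus strand) and Inha (chr1:75507359-75507608, plus strand) hold none.
Ctsl: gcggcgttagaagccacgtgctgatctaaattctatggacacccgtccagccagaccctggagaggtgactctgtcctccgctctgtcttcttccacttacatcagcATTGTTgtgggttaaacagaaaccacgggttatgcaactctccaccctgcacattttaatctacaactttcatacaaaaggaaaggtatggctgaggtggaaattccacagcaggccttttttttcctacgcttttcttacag
Defb36: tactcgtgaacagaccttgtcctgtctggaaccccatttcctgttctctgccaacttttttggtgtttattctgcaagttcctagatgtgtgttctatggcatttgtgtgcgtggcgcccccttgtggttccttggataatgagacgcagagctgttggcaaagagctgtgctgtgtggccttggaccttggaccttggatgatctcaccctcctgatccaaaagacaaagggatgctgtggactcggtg
Inha: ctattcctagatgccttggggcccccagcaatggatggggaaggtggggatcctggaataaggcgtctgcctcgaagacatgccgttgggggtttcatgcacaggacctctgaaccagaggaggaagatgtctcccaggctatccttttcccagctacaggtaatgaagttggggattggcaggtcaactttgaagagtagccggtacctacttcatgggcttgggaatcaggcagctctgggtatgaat
Rhox5: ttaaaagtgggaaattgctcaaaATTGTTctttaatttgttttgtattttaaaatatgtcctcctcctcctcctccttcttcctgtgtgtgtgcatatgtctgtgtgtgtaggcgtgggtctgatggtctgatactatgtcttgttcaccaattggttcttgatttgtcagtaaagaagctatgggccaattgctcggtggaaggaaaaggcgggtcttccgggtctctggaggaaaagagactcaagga

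The SOX core begins 143 bases before the annotated start of Ctsl and 227 bases before that of Rhox5. Searched on both strands, AACAAT occurs in 9.42% of all 32851 RefSeq promoter windows of this length. The motif AAGGTCA, bound by NR5A1, occurs in 4.08% of windows, the GATA motifs AGATAA and TGATAA in 9.99% and 7.94%, and the TATA box TATAAA in 12.4%, and none of these was found in the windows of the 6 genes. The E-box CANNTG occurs in 66.2% of windows, with 1 match in Ctsl, 1 in Defb36, 3 in Rhox5 and 0 in Inha, not capitalised above. No motif overlapped another in these windows. The windows of Ctsl, Defb36, Inha and Rhox5 hold 47.2%, 50.4%, 53.6% and 42.8% G and C, against a median of 52.4% over all windows. A match is a match of letters and no evidence of binding.

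Of the members that encode secreted proteins, Ctsl encodes cathepsin L, a cysteine protease that Sertoli cells also release into the tubule. Its ratios ran from 0.04 in mouse 5905 over a median of 0.45 to 0.75 in mouse 5907. All 10 mice lay above 0, as did 36 of the 38 testis arrays with a value. The mean was 0.44 ± 0.19 (SD, n = 10; limma adjusted p = 0.00567).

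Clu encodes clusterin, an extracellular chaperone and a major secreted product of Sertoli cells. Its lowest ratio was 0.15 in mouse 5997, its median 0.36 and its highest 0.76 in mouse 6065, with a mean of 0.39 ± 0.20 (SD, n = 10; limma adjusted p = 0.00967). Clu was above 0 in every mouse, as 3.31% of all probes tested were (3.17% were below 0 and 6.48% of 1 sign in every mouse). It was also above 0 on all 40 testis arrays, which held for 4 of 20218 probes (0.0198%). The other three probes were those of Cst12, Ndufv1 and Maged1. Repeat arrays of the same RNA in the same dye differed with an SD of 0.11 for Clu, beside an SD of 0.20 between mice. For Ctsl these SDs were 0.24 between repeat arrays and 0.19 between mice. The repeat SD is that of single arrays within a dye, whereas a mouse value is a mean over arrays and dyes. The Cy5 minus Cy3 ratio had an SD over mice of 0.34 for Clu and 0.24 for Ctsl. For Clu, mouse 6065 lay at 1.26 in Cy5 and 0.27 in Cy3. The exact two-sided sign-flip permutation test over the 10 mice gave p = 0.00195 for Clu and for Ctsl, the smallest value that 10 mice allow.

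Defb36 encodes a beta-defensin, a small cationic peptide of a family known for antimicrobial activity. Its ratios ran from -0.03 in mouse 5905 over a median of 0.31 to 0.51 in mouse 6065, and 9 of 10 mice lay above 0. The mean was 0.28 ± 0.17 (SD, n = 10; limma adjusted p = 0.0152). With the wr/wr RNA in Cy5 the mean was 0.44, above 0 in 10 mice, and in Cy3 it was 0.13, above 0 in 7 mice and not called (limma adjusted p = 0.266).

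The array carried 6 other beta-defensins, of which 1 rose and 0 fell, with a median of 0.09. The one that rose was Defb19, at 0.30 ± 0.25 (SD, n = 9 mice with both dyes; limma adjusted p = 0.0364), above 0 in 9 of 9 mice. In the RefSeq gene order Defb19 and Defb36 lie on chromosome 2 with 1 protein-coding gene, Defb45, between them. The remaining 5 ranged from -0.14 for Defb29 to 0.13 for Defb6 and were not called.

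Trf encodes transferrin, which carries iron to the germ cells, and was not called. The probe with most values had a lowest ratio of -0.36, a median of -0.06 and a highest of 0.49, with a mean of -0.02 ± 0.23 (SD, n = 10; limma adjusted p = 0.899). Its second probe ran from -0.70 to 0.29 around a mean of -0.16 ± 0.31 (SD, n = 10; limma adjusted p = 0.247). Repeat arrays of 1 RNA and dye differed with an SD of 0.48 on the first probe and 0.81 on the second. These are SDs of single arrays, whereas each mouse value is a mean over arrays. Of 6 measured genes of iron uptake and storage, 1 rose and 0 fell (median 0.11). It was Ncoa4, the cargo receptor that delivers ferritin to autophagy, at 0.20 ± 0.14 (SD, n = 10; limma adjusted p = 0.0255), while its second probe lay at 0.06. The transferrin receptor gene Tfrc had no probe of that symbol.

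Among hormone genes, Inha was the only member measured, with 1 probe. It encodes the alpha subunit of inhibin, the Sertoli cell hormone that lowers the release of follicle-stimulating hormone by the pituitary. Ratios ran from -0.16 in mouse 5997 over a median of 0.32 to 0.46 in mouse 5907, and mouse 5905 also lay below 0, at -0.03. The mean was 0.24 ± 0.20 (SD, n = 10; limma adjusted p = 0.0307). The call was lost when any 1 of 8 mice was left out (limma adjusted p up to 0.0725) and was kept without mouse 5905 or 5997, with means between 0.21 and 0.28. With the wr/wr RNA in Cy5 Inha lay at 0.45 ± 0.20, above 0 in 10 mice, and in Cy3 at 0.03 ± 0.27 (SD, n = 10 each; limma adjusted p = 0.00521 and 0.872).

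Of the 11 measured genes of the inhibin, activin and anti-Müllerian hormone pathway outside the members, 1 rose and 0 fell, with a median of -0.05. Amhr2, the receptor of anti-Müllerian hormone, was at 0.26 ± 0.18 (SD, n = 10; limma adjusted p = 0.0205) and above 0 in 9 of 10 mice. Inhba, whose product pairs with the alpha subunit to form inhibin A, was at -0.06 ± 0.27 (SD, n = 10) and was not called. Tgfbr3, a co-receptor of inhibin, was at -0.22 ± 0.27 (SD, n = 10; limma adjusted p = 0.0861).

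Among transcription factors, the 2 probes of Sox9 disagreed. Sox9 directs the supporting cells of the early gonad to the Sertoli fate. Probe 1477 ran from -0.03 in mouse 5997 over a median of 0.22 to 0.42 in mouse 5995 and rose by 0.19 ± 0.13 (SD, n = 10; limma adjusted p = 0.023), with 9 of 10 mice above 0. Probe 18047 ran from -0.55 in mouse 6069 over a median of -0.14 to 0.12 in mouse 5907, with a mean of -0.14 ± 0.20 (SD, n = 10; limma adjusted p = 0.14) and 7 of 10 mice below 0. Both had a value on every array, and the first counted for the gene because its number is the lower. With both averaged the gene lay at 0.02 (limma adjusted p = 0.727), so that 4 of 8 genes were called in place of 5. The repeat arrays differed with an SD of 0.22 on probe 1477 and 0.38 on probe 18047. Probes of both signs were frequent on this array: of 753 genes with several tested probes and a call, 305 (40.5%) had them. The call of probe 1477 was also lost without mouse 6335 or 6493 (limma adjusted p = 0.0514 and 0.0572) and with the wr/wr RNA in Cy5 only (0.13, limma adjusted p = 0.127).

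Rhox5, an X-linked homeobox gene that responds to androgen in Sertoli cells, was not called. Its ratios ran from -0.24 in mouse 5907 over a median of -0.03 to 0.31 in mouse 5995, with a mean of -0.01 ± 0.15 (SD, n = 10; limma adjusted p = 0.924). With the wr/wr RNA in Cy5 it lay at 0.20 ± 0.15, above 0 in 9 of 10 mice, and in Cy3 at -0.22 ± 0.23, above 0 in 1 of 10 (SD, n = 10 each). The 2 dyes therefore gave ratios of opposite sign and nearly equal size. Of the Rhox cluster, Rhox6 (-0.11 ± 0.14, SD, n = 10) and Rhox13 (-0.04 ± 1.18, SD, n = 9) were measured too and not called.

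Espn encodes espin, an actin-bundling protein of the junctions that hold spermatids to Sertoli cells, and was not called on either probe. The probe with most values ran from -1.13 in mouse 6065 over a median of 0.10 to 0.95 in mouse 5995, around a mean of 0.02 ± 0.51 (SD, n = 10; limma adjusted p = 0.933). The second probe had a value on 34 of 40 arrays and a mean of -0.07 ± 0.19 (SD, n = 9; limma adjusted p = 0.443). Repeat arrays of 1 RNA and dye differed with an SD of 0.75 and 0.67 on these probes. The means over mice had an SE of 0.15 on the first and 0.06 on the second probe, beside 0.06 for Clu and for Ctsl.

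**Figure D2:**
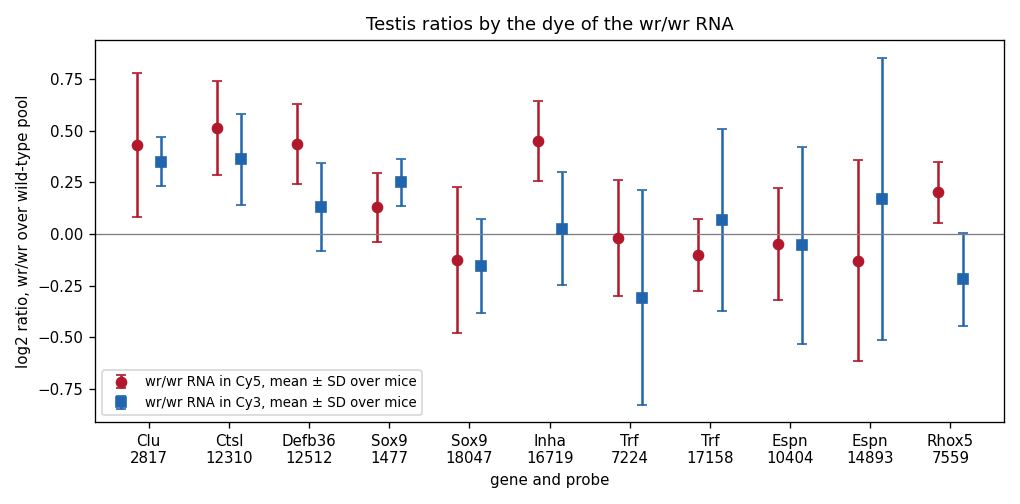
Mean log2 ratio in testis (vertical axis) of the 11 member probes (horizontal axis) from arrays with the wr/wr RNA in Cy5 (circles) and in Cy3 (squares), with bars for the SD over mice. Clu, Ctsl and Sox9 probe 1477 lie above 0 in both dyes, Inha and Defb36 are higher in Cy5, and Rhox5 changes sign between dyes.

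By dye, 5 of the 8 genes were called with the wr/wr RNA in Cy5 alone (Clu, Ctsl, Defb36, Inha and Rhox5) and 3 in Cy3 alone (Clu, Ctsl and Sox9). Over all probes, 16.8% were called in Cy5 alone and 6.65% in Cy3 alone, so the array as a whole also had fewer calls in Cy3. Clu was at 0.43 ± 0.35 in Cy5 and 0.35 ± 0.12 in Cy3, and Ctsl at 0.51 ± 0.23 and 0.36 ± 0.22 (SD, n = 10 each), so that both genes were above 0 in all 10 mice in either dye. Each of these 4 values was called, with a limma adjusted p of at most 0.0208. Sox9 probe 1477 was called in Cy3 (0.25 ± 0.12, SD, n = 10; limma adjusted p = 0.0148).

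Across mice, 8 of the 10 testes had all 5 of the called probes above 0, and mice 5905 and 5997 had 3 each. These probes were called for a mean above 0 over the same mice, so values mostly above 0 follow from that choice. The mean over these probes was 0.13 in mouse 5905 and 0.07 in mouse 5997, and between 0.23 and 0.47 in the other eight. In both of these mice the ratios from Cy5 and Cy3 arrays correlated below 0 over all probes (Spearman rho -0.223 and -0.112), as they did in mouse 6065 (-0.309), where the mean over the called probes was 0.43. The part of this in the ratios was not tested, and without these 3 mice 5 member genes were again called.

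Of the 28 pairs among the 8 genes, 0 had ratios that correlated over the 10 mice after Benjamini-Hochberg adjustment, and 5 had an unadjusted permutation p below 0.05. The closest pair was Defb36 and Inha (Pearson r = 0.862, permutation p = 0.00229, adjusted p = 0.0641; Spearman rho = 0.705, permutation p = 0.0272, adjusted p = 0.21), with an r of 0.589 without the 2 mice farthest from the median of Defb36. Their r was 0.849 within Cy5 and 0.802 within Cy3. All mice share 1 wild-type pool, and both genes of a pair are read from the same arrays. A profile was averaged over the 6 genes with means above 0, the 5 called ones and Espn. Espn was not called and had the widest spread over mice of the 6 (SD 0.51). The probes of named genes closest to this profile were those of Ubxn1 (r = 0.957), Tmed3 (r = 0.948) and Ndufs6 (r = 0.946). Of 13333 probes, 208 reached an r of 0.8, as a description over 10 mice.

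Beyond the members, 41 other Sertoli cell genes were listed, 23 had a probe and 22 were tested in testis. Of these 22, 3 rose and 0 fell (median 0.09), beside 12.3% of all probes called, 7.28% higher and 5.06% lower. The same shares stand beside the testis counts of the other gene lists. Tuba1a, an alpha-tubulin, was at 0.30 ± 0.16 (limma adjusted p = 0.0118) and Vim, the intermediate filament protein of Sertoli cells, at 0.23 ± 0.20 (limma adjusted p = 0.0386), each above 0 in 10 of 10 mice (SD, n = 10). Timp1, an inhibitor of matrix proteases, was at 0.27 ± 0.24 (SD, n = 10; limma adjusted p = 0.0369), while its second probe lay at -0.51. A second probe of Vim lay at 0.40. None of these 3 genes is expressed in Sertoli cells alone. Cldn11, a claudin of the Sertoli cell tight junction, was at 0.21 ± 0.33 (SD, n = 10; limma adjusted p = 0.169), with 8 of 10 mice above 0, and was not called.

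Ctsl was the only cathepsin that rose among those measured. Of the 10 others, 0 rose and 1 fell (median -0.06), namely Ctss, a cathepsin of macrophages and other antigen-presenting cells, at -0.20 ± 0.18 (SD, n = 10; limma adjusted p = 0.0395). Ctsb was at -0.25 ± 0.26 (limma adjusted p = 0.0586) and Ctsd at -0.03 ± 0.17 (SD, n = 10 each). The clusterin receptors Lrp2 (-0.07 ± 0.16) and Lrp8 (0.19 ± 0.32) were not called (SD, n = 10 each).

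**Figure D3:**
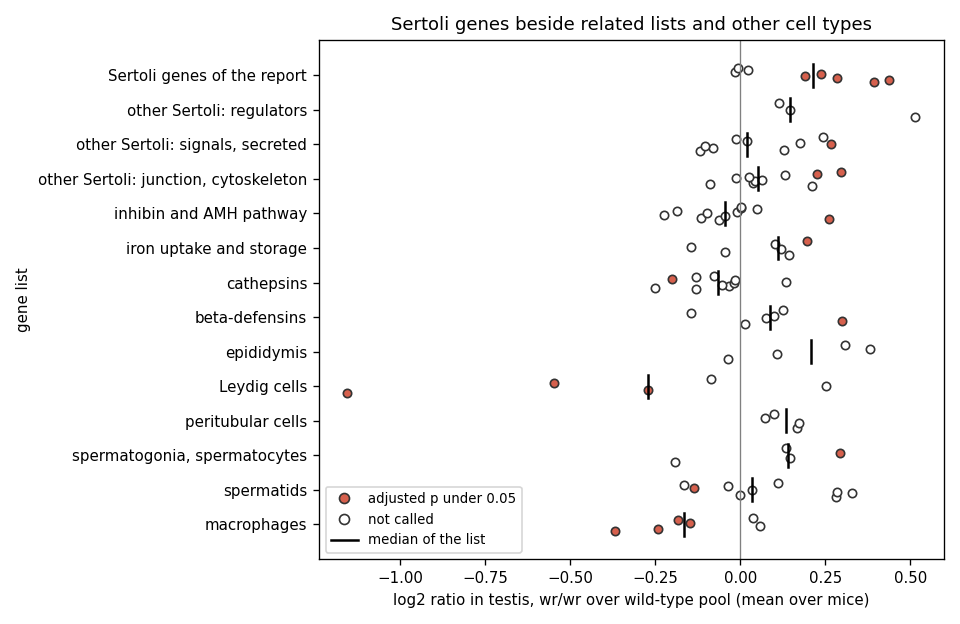
Mean log2 ratio in testis (horizontal axis) of each measured gene, 1 circle per gene, in the lists on the vertical axis, filled where the limma adjusted p was below 0.05, with a black bar at the median of the list. The member genes have a median of 0.21, while Leydig cell genes have -0.27 and macrophage genes -0.17.

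Markers of other testis cells moved in the same samples, and their part in the Sertoli ratios was not tested. Of 5 measured Leydig cell genes 3 fell and 0 rose (median -0.27), with the largest negative ratio for Cyp17a1, an enzyme of androgen synthesis (-1.16 ± 0.67, SD, n = 10; limma adjusted p = 0.0118), and the largest positive for Hsd3b1 (0.25 ± 0.28, SD, n = 10; limma adjusted p = 0.0665). The median over this list was below 0 in every mouse, from -0.48 to -0.02. Of 6 macrophage genes 4 fell (median -0.17), led by Cd68 at -0.37 ± 0.26 (SD, n = 10; limma adjusted p = 0.0185). The others were C1qa (-0.24 ± 0.19), C1qc (-0.15 ± 0.08) and Lyz2 (-0.18 ± 0.13), and a second probe of Lyz2 lay at 0.27 (SD, n = 10 each). The highest was C1qb at 0.06 ± 0.25 (SD, n = 10), not called. The macrophage median ranged over mice from -0.33 to 0.11.

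Germ cell genes were measured in a list of early and a list of late stages. Of 4 genes of spermatogonia and spermatocytes 1 rose, Ldhc, the lactate dehydrogenase of germ cells, at 0.29 ± 0.14 (SD, n = 10; limma adjusted p = 0.0102), with the list's median at 0.14 and between -0.01 and 0.39 over mice. Of 9 spermatid genes 1 fell, Acr, the acrosin precursor, at -0.14 ± 0.11 (SD, n = 10; limma adjusted p = 0.0379), while 5 had means above 0 (median 0.03). The largest ratios were those of Tnp1 (0.33 ± 0.50) and Odf1 (-0.17 ± 0.29), neither of them called (SD, n = 10 each). The spermatid median ranged from -0.41 to 0.49 over mice. Of 4 peritubular genes 0 were called (median 0.13), the highest being Myh11 at 0.17 ± 0.22 (SD, n = 10; limma adjusted p = 0.11). Of 4 epididymal genes 0 were called either, with Adam7 at 0.38 ± 0.65 (SD, n = 10; limma adjusted p = 0.193). Their median ranged from -0.18 to 1.08 over mice. The epididymis also expresses Clu and beta-defensins.

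In the spinal cord, where several of these genes are expressed by glia, none of the 8 member probes tested was called, as none of all 17055 probes was (0%). Of the 8 probes, 1 had an unadjusted limma p below 0.05, the second probe of Trf, as did 1476 of all 17055. The member probes had the same sign in all 3 cord RNAs in 3 cases, Inha and the second probe of Trf below 0 and Sox9 probe 1477 above, against 39.3% of all probes. By dye these cord means were uneven. Over all probes, the ratios from Cy5 and Cy3 arrays correlated below 0 in each cord RNA. Spearman rho was -0.228 in pool1, -0.0205 in pool2 and -0.0606 in mouse 5995. Inha lay at -0.04 with the wr/wr RNA in Cy5, where pool1 (0.13) and pool2 (0.06) were above 0, and at -0.72 in Cy3. The second probe of Trf lay at -0.30 in Cy5 and -0.68 in Cy3, and Sox9 probe 1477 at 0.41 in Cy5 and 0.17 in Cy3.

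Clu, which astrocytes make in the nervous system, was at 0.25 in pool1, 0.41 in pool2 and -0.07 in the cord of mouse 5995 (mean 0.20 ± 0.25, SD, n = 3; limma adjusted p = 0.606). Its cord mean was 0.57 with the wr/wr RNA in Cy5 and -0.18 in Cy3. Sox9, an astrocyte factor of the adult cord, was on probe 1477 at 0.37 in pool1, 0.34 in pool2 and 0.16 in mouse 5995 (mean 0.29 ± 0.11, SD, n = 3; limma adjusted p = 0.542). On probe 18047 it was at -0.14, 0.25 and 0.09 in the same order. Astrocyte genes of the cord had a median of 0.20 over 7 tested genes, 0 of them called. The second probe of Trf, a gene of myelinating oligodendrocytes there, was at -0.38 in pool1, -0.39 in pool2 and -0.70 in mouse 5995 (mean -0.49 ± 0.18, SD, n = 3; limma adjusted p = 0.542), while its first probe lay at -0.09, 0.21 and -0.32.

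Ctsl and Defb36 had both dyes in only 2 cord RNAs and were not tested there. Ctsl was at 0.61 in pool1 and 0.99 in pool2. In pool1, its 2 arrays with the wr/wr RNA in Cy5 gave -0.35 and -0.24, and its 2 arrays in Cy3 gave 1.5 and 1.53. Defb36 was at 1.66 in pool1, where 1 array read 5.83, and at -0.27 in pool2. Rhox5 (-0.13, 0.52 and -0.48) and the Espn probe with most values (0.42, -0.17 and -0.65) had both signs among pool1, pool2 and mouse 5995.

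The testis ratio differed from the cord ratio for 1 of the 6 genes tested in both tissues, against a background of 21.2% of all 17005 probes tested (10.8% with the testis ratio higher and 10.4% lower). It was Inha, at 0.24 ± 0.20 in testis (SD, n = 10) and -0.38 ± 0.23 in cord (SD, n = 3), a difference of 0.62 (SE 0.13; limma adjusted p = 0.00813). The cord values were -0.17 in pool1, -0.36 in pool2 and -0.62 in mouse 5995, all below the lowest testis value of -0.16, and 14.5% of the probes tested in both tissues had such groups without overlap. The difference was positive in both dyes, 0.49 with the wr/wr RNA in Cy5 and 0.75 in Cy3. In a paired fit, where a cord RNA is set against the testes from the mice it was made of, leaving 3 differences, it was 0.62 as well but not called (limma adjusted p = 0.392), and that fit called 0 of the 17005 probes.

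**Figure D4:**
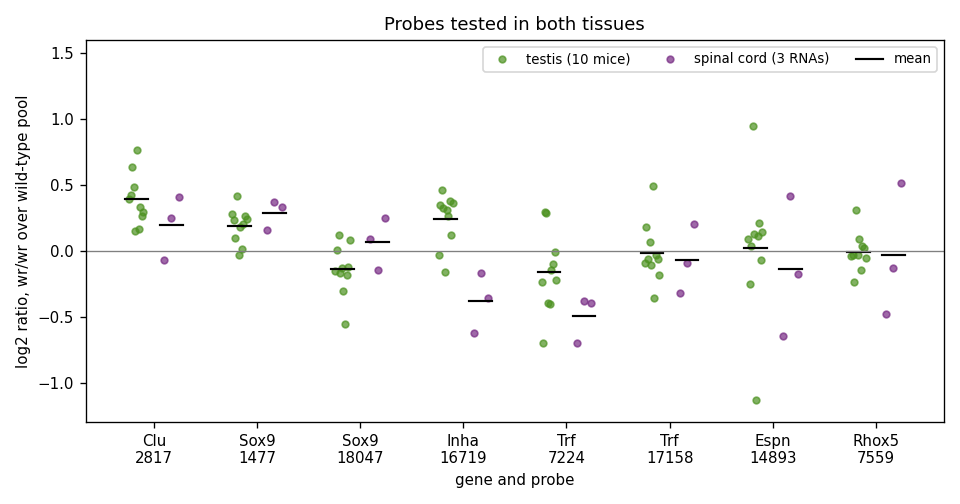
Log2 ratio (vertical axis) of the 8 member probes tested in both tissues (horizontal axis), with a point for each of 10 testes and, to the right, for each of 3 cord RNAs, and a bar at the mean. The Inha points of testis and cord do not overlap, while those of every other probe do.

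For the other 5 genes the difference was not called. For Clu it was 0.20 (SE 0.13; limma adjusted p = 0.307), with -0.14 in Cy5 and 0.53 in Cy3. For Sox9 probe 1477 it was -0.10 (SE 0.09; limma adjusted p = 0.462), both tissues having means above 0. For Espn it was 0.16 (SE 0.31) and for Rhox5 0.02 (SE 0.16). Trf differed by 0.05 (SE 0.15) on its first and by 0.33 (SE 0.18; limma adjusted p = 0.203) on its second probe. A difference missed by the test with 3 cord RNAs is not shown to be absent.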

How the data were processed

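Total RNA was reverse transcribed and coupled to Cy3 or Cy5, per the labels' protocols. The deposited values are 1 log2 ratio per probe and array; their background correction, normalization, log base and direction are not stated, and log2 is read from the range. Some deposited log2 values (586 positive with the wr/wr RNA in Cy5, 886 negative in Cy3) were 15.6 to 17 in size and were kept. Array medians lay between -0.027 and 0.032 in testis and between -0.091 and 0.058 in cord. The number of mice and arrays limits the precision.

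Arrays were centred on their median, and the Cy5 and Cy3 means of an RNA averaged, so that an RNA is 1 replicate. Probes needed both dyes in at least 8 testis mice or all 3 cord RNAs. limma 3.58.1 (R 4.3.3, lmFit, eBayes) tested ratios against 0 and, over 13 RNAs, testis minus cord. Benjamini-Hochberg adjustment ran over all probes tested. The scripts were tested on simulated data with ratios added to some probes. In testis, 32% of added ratios of 0.2 and 70% of those of 0.4 were called. In cord, 0% were called at any added size, up to 1.6. The simulated share of changed probes was not matched to these data. Permutation tests used scipy 1.17.1 and numpy 2.4.6 (all 1024 sign flips, or 100000 permutations for correlations). Pairing comes from the labels, which name the mice of every cord RNA. Cord deviations from the cord mean, set against those of the same mice's testes over 17005 probes, gave r = 0.00842 in mouse 5995, -0.00867 in pool1 and 0.00547 in pool2. P-values of cord measure the spread between RNAs, of which 2 are pools.

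Members and lists were chosen with earlier results of these data known. A gene counts by the probe with most values, the lower number on a tie. The counts of a list cover all its tested genes, but not every called gene or largest ratio is named. Some uncalled genes were named after their values were seen. Of the probes, 14030 had 1 gene symbol, 5 several and 6320 none here. The alternatives were other centring, scaling, filters, dye, probe and replicate choices.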

Additional observations from a re-analysis of the deposited data

Results flagged for a closer look

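The Inha ratio differed between tissues by the test of the difference itself, with testis minus cord at 0.62 (SE 0.13; limma adjusted p = 0.00813), where testis lay at 0.24 and cord at -0.38. The cord RNAs come from the same mice as the testes, and in the paired fit the difference of 0.62 was not called (limma adjusted p = 0.392). The second Espn probe (10404) had 1 testis far from the others: mouse 6065, at 0.37, lay above the next mouse by 0.5625 of the whole range of 9 mice. Over 11 probes, chance alone flags about 1 in 20 such groups.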

How the results depend on the processing

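The count of member genes called in testis, 5 of 8, was 3 with the wr/wr RNA in Cy3 only and ranged from 3 to 5 when 1 mouse was left out, being 3 without mouse 6335 or 6493 and 5 without 5905 or 5997. It was 4 with the probes of a gene averaged, and 5 without centring, with scaled arrays, with extreme values set to missing, with a plain mean over arrays, under both other filters, with robust eBayes, with Cy5 only, without mice 5905, 5997 and 6065, and by the exact sign-flip permutation test with an unadjusted p below 0.05. In that test, probe 1477, which counts for Sox9, had an unadjusted sign-flip p = 0.00586 with a mean above 0. Sox9 probe 18047 had an unadjusted sign-flip p = 0.0391 with a mean below 0. The sign-flip test adjusted over the members was not run. Clu, Ctsl and Defb36 kept their calls without each mouse in turn. Rhox5 was at 0.20 with Cy5 only (limma adjusted p = 0.0247), the opposite sign to its mean of -0.01. Over all probes, 2494 calls in testis became 1352 with Cy3 only, 3406 with Cy5 only, and from 752 (without mouse 6493) to 2580 without 1 mouse, with 998 without 6069, 1233 without 6335, 1241 without 5907, 1494 without 5995 and 1539 without 5906. The cause was not tested. Of the tissue differences, the replicate block of cord RNAs with the testes of their mice called 0 in place of 1, on 3 differences, and every other alternative run called 1, with or without each cord RNA in turn. In cord the count of 0 says nothing about stability, since the smallest adjusted p of all 17055 probes was 0.542 with 3 RNAs.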
